A study of Mus musculus with 15 samples.

Results

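The Polycomb complex subunits were followed in single mouse oocytes. They are 10 genes chosen by name as subunits of Polycomb repressive complex 1 (PRC1) or 2 (PRC2), of 28785 gene IDs in all. Of the 10, 7 belong to PRC1 (Ring1, Rnf2, Bmi1, Pcgf1, Pcgf6, Scmh1 and Scml2) and 3 to PRC2 (Eed, Ezh2 and Suz12), and all 10 were found in the gene IDs of the files. The samples were 9 fully grown oocytes at the germinal vesicle (GV) stage, arrested in meiotic prophase, and 6 mature oocytes at the MII stage, halted in metaphase of meiosis II. Each library held the total RNA of 1 oocyte amplified by MATQ-seq, a single-cell method whose primers anneal along whole transcripts. All oocytes came from female mice of about 6 to 8 weeks that were given pregnant mare serum gonadotropin at 7 IU. GV oocytes were taken 44 h later. For MII oocytes, 7 IU of human chorionic gonadotropin followed at about 48 h, oocytes with their cumulus were dissected out of the oviducts another 20 h on, and hyaluronidase at 300 IU/mL removed the cumulus cells. The labels give no strain, genotype or number of mice.

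Polycomb proteins keep genes silent through histone marks. PRC2 methylates histone H3 at lysine 27: Ezh2 carries the catalytic site, Suz12 is the scaffold and Eed binds the finished mark and stimulates the enzyme. PRC1 attaches ubiquitin to histone H2A through the ligases Ring1 and Rnf2 (RING1B), each paired with a PCGF protein that sets the type of complex, and the SAM domain proteins Scmh1 and Scml2 associate with canonical PRC1. In growing oocytes, PRC2 lays down the maternal H3K27me3 that later acts as a form of imprinting, and PRC1 is known to be needed for developmental competence.

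The depth was 3687610 to 7103063 counts in the GV libraries and 808641 to 2348281 in the MII libraries. No mouse is named for any oocyte, so each stage counts as 1 sample, no test was made, and every difference below is a size set beside the spread between oocytes. Levels are counts scaled to a common total (CPM), a share of each library that gives no amount of RNA per oocyte. The unnamed feature ENSMUSG00000119584 took 15.7% to 61.2% of the MII counts, most in MII5 and MII6, and 0 to 11.2% of the GV counts. The median of the 10090 measured genes (at least 5 CPM in the higher stage) had a log2 CPM ratio MII/GV of -0.98. Ratios below are therefore log2 ratios of summed counts relative to that median gene, and the CPM values stand beside them. The GV files fall into a set with column headers that begin with Y (GV1 to GV6) and a set with headers that begin with E (GV7 to GV9), and the MII files share another kind of header. The meaning of the headers is unknown, and header kind and stage cannot be told apart for MII.

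The label of the cells was checked with fixed markers. Of 15 oocyte markers, all 15 had counts in every GV oocyte and 14 to 15 in each MII oocyte, led by the zona pellucida gene Zp3 with 7570 CPM in GV and 2013 in MII. These 15 summed to 8125 to 30438 CPM in GV, lowest in GV2, and to 6454 to 8792 CPM in MII. The 15 cumulus and granulosa markers summed to 101 to 337 CPM in GV and 14.0 to 81.5 CPM in MII, led by Nr5a2 (83.8 and 31.3 CPM). Of these 15, 4 to 11 had counts in each GV oocyte and 2 to 5 in each MII oocyte. Inha, Amh and Foxl2 had 0 counts in MII. Only 4 of the 15 were measured, with ratios from -8.60 to 0.85. Of these 4, 2 were at least 2-fold lower in MII and 0 higher, beside 15.5% and 12.1% of all measured genes. The 12 theca and stroma markers summed to 0.471 to 35.6 CPM in GV and 0 to 27.9 CPM in MII. The top MII value was that of MII5 alone, and the other MII oocytes were at 0 to 2.91 CPM. Col1a1 was highest (2.98 and 4.26 CPM) and Cyp17a1 was at 0 throughout. Of these 12, 2 to 10 had counts in each GV oocyte, with 10 in GV1 and 9 in GV2, and 0 to 2 in each MII oocyte. The 12 blood and immune markers summed to 6.10 to 72.2 CPM in GV and 12.5 to 32.1 CPM in MII. Nearly all came from C1qb (26.7 and 19.0 CPM), with Lyz2 and Cd3e at 0. Of these 12, 2 to 4 had counts in each GV oocyte and 1 to 3 in each MII oocyte. The 10 oviduct epithelium markers were almost only Cdh1 (922 and 704 CPM), a cadherin that oocytes also make. Their sums were 550 to 1337 CPM in GV and 295 to 1260.2 CPM in MII. Of these 10, 2 to 8 had counts in each GV oocyte and 1 to 4 in each MII oocyte, and Ovgp1 had 0 counts in MII.

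Libraries GV1 and GV2 stood apart in the Hox genes, body-axis regulators that are standard Polycomb targets. Of 39 Hox genes, 34 had counts in GV1 and 34 in GV2, against 4 to 14 in the other 13 oocytes, and 30 in each had at least 10 counts. Without Hoxa7 the Hox counts summed to 658 CPM in GV1, 816 CPM in GV2 and 3.41 to 21.2 CPM elsewhere. Hoxa7 was present in all 15 oocytes, at 44.9 CPM in GV oocytes and 64.0 in MII oocytes (ratio 1.49). The theca and stroma markers were also highest among GV oocytes in these libraries, at 24.8 CPM in GV1 and 35.6 CPM in GV2, and the part of such cells in the Hox counts was not tested. For the Ring1 level, the ratios of Bmi1, Scml2 and Ezh2 and the correlations among GV oocytes, values without 1 or both of these libraries are also given. Most other results include both.

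**Figure D1:**
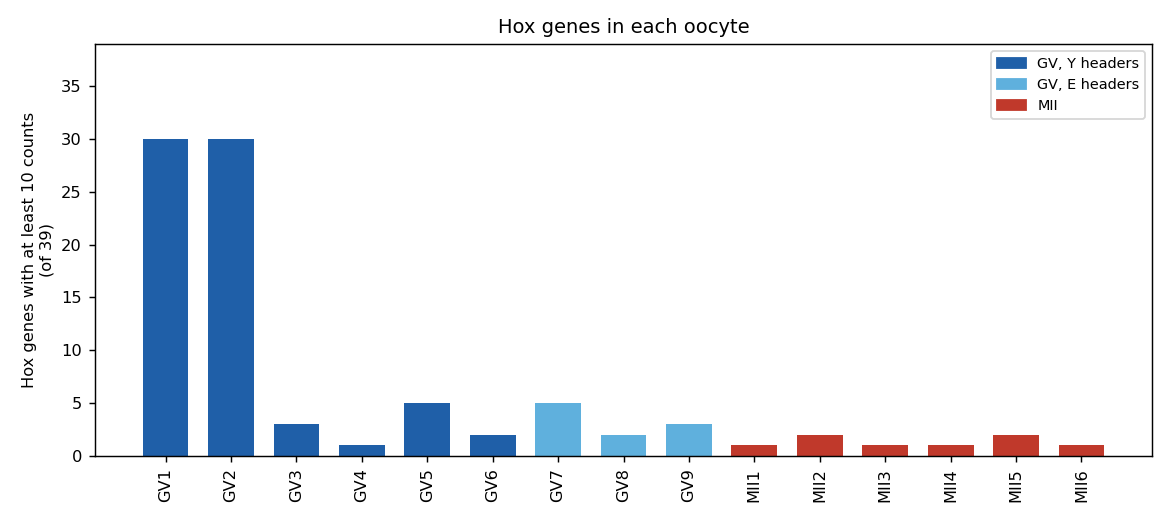
Number of the 39 Hox genes with at least 10 counts (vertical axis) in each oocyte (horizontal axis), coloured by stage and header kind. GV1 and GV2 each reach 30 genes, and the other 13 oocytes have 1 to 5.

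The ligases were represented by Rnf2 almost alone. Rnf2 had counts in every oocyte, at 31.4, 61.3 and 77.7 CPM (lowest, median and highest) in GV and 20.6, 41.9 and 64.3 CPM in MII, so the stages overlapped. Ring1 had 27 counts in all GV oocytes, 20 of them in GV1, 2 in GV2 and 5 in GV5, and 0 in the other 6 GV and all 6 MII oocytes. Ring1 was thus barely detected at this depth, and most of its counts came from 1 library. The summed GV level of Ring1 was 0.615 CPM (95% Poisson interval 0.405 to 0.895), and 0 counts in MII allow up to 0.311 CPM when taken as 3 counts over the stage, or 0.383 CPM as the exact Poisson limit. Without GV1 the GV level of Ring1 was 0.179 CPM, and without GV1 and GV2 it was 0.144 CPM, both under either MII limit, so no fold is given. Such intervals and floors cover counting error only, since PCR reads are not independent molecules.

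Per kilobase of exon, Rnf2 made up a median of 100% of the summed Ring1 and Rnf2 level in GV and 100% in MII, with the lowest value, 93.1%, in GV1. The ratio of Rnf2 was 0.35 (counting interval 0.19 to 0.50), smaller than the spread between oocytes of 0.56. It was 0.20 against the Y files and 0.75 against the E files. In plain CPM Rnf2 was lower in MII, at 39.5 CPM against 61.4 in GV. Its exons overlap those of Trmt1l on the opposite strand, with which it shares 2.59% of its 50-base stretches, and the use of strand in counting is not given.

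The promoters of both ligase genes are shown because a pair of paralogs with the same enzymatic role differed so widely in counts. The 250 bases before each start site are from RefSeq on GRCm38.p6, with every CG dinucleotide in capitals. Ring1 lies at chr17:34024681-34024930 and Rnf2 at chr1:151500992-151501241, both on the minus strand.
Ring1: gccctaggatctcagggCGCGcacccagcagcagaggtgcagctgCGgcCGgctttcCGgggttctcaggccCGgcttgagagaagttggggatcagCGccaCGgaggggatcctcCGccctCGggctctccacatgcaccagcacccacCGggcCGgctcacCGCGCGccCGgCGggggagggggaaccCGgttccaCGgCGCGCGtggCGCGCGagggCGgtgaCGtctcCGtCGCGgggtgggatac
Rnf2: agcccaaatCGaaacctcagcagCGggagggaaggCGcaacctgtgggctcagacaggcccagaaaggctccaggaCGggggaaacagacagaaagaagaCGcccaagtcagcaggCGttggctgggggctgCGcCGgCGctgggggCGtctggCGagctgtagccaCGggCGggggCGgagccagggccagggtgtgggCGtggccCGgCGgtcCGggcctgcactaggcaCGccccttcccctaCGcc
The stretch of Ring1 holds 30 CG dinucleotides and that of Rnf2 holds 20. In the full window of 300 bases (to 50 bases past the start), Ring1 has 37 and Rnf2 has 30, against a median of 7 and a 90th percentile of 31 over 32841 mouse windows. Both are therefore CG-rich, and the gene with almost no counts has the denser promoter. The part of CG density in the counts was not tested.

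The RING partners Bmi1 (PCGF4), Pcgf1 and Pcgf6 mark canonical PRC1 and the variant complexes PRC1.1 and PRC1.6. Bmi1 was at 150, 297 and 694 CPM (lowest, median and highest) in GV and 106, 291 and 485 CPM in MII. Its top GV value belongs to GV2, the next being 386 CPM in GV9, and the low MII values are those of MII5 (107 CPM) and MII6 (106 CPM). The ratio of Bmi1 was 0.77 (0.71 to 0.83) against a spread of 0.82, and it was 0.91 without GV1 and GV2. Plain CPM gave 306 in GV and 264 in MII, a lower MII value. Bmi1 shares 16.7% of its 50-base stretches with other genes, mainly Gm5946 with 4477 GV and 543 MII counts, so reads could be split between them.

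Pcgf1 had the highest ratio among the subunits, with CPM that were the same in both stages. It was at 103, 216 and 500 CPM in GV and 147, 235 and 424 CPM in MII, and the summed levels were 255 CPM in each. Its ratio of 0.98 (0.92 to 1.05) was smaller than its spread of 1.14. The ratio rested on 2 libraries: MII5 at 424 CPM and MII6 at 291 CPM were the highest MII oocytes, and without both it was 0.28. Pcgf1 shares 15.3% of its 50-base stretches with Gm8930, which had 132 GV and 34 MII counts.

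Pcgf6 was the least abundant of these RING partners. It was at 60.3, 106 and 156 CPM in GV and 29.1, 54.8 and 83.0 CPM in MII, and all 6 MII oocytes lay below the GV median in CPM. Relative to the median gene the ratio was 0.23 (0.10 to 0.36) with a spread of 0.71, and it turned to -0.12 without MII6. In CPM its summed level was 100.3 in GV and 59.6 in MII.

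Among these 3 RING partners, Pcgf1 held the largest median share per kilobase in both stages. The share of Pcgf1 was 24.0%, 62.3% and 74.1% (lowest, median and highest) in GV and 41.2%, 59.0% and 88.7% in MII. Bmi1 held medians of 30.6% and 36.7%, and Pcgf6 held 8.86% and 5.36%. The order was not the same in every oocyte: in GV2 and MII3 Bmi1 exceeded Pcgf1, with Bmi1 shares of 67.1% and 52.8%. With the longest transcript as the length, the medians of Pcgf1 (70.7% and 68.8%) were also above those of Bmi1 (21.4% and 26.3%). The order of the medians turned only without division by length, where Bmi1 held 45.7% and 55.1% and Pcgf1 39.5% and 36.8%.

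**Figure D2:**
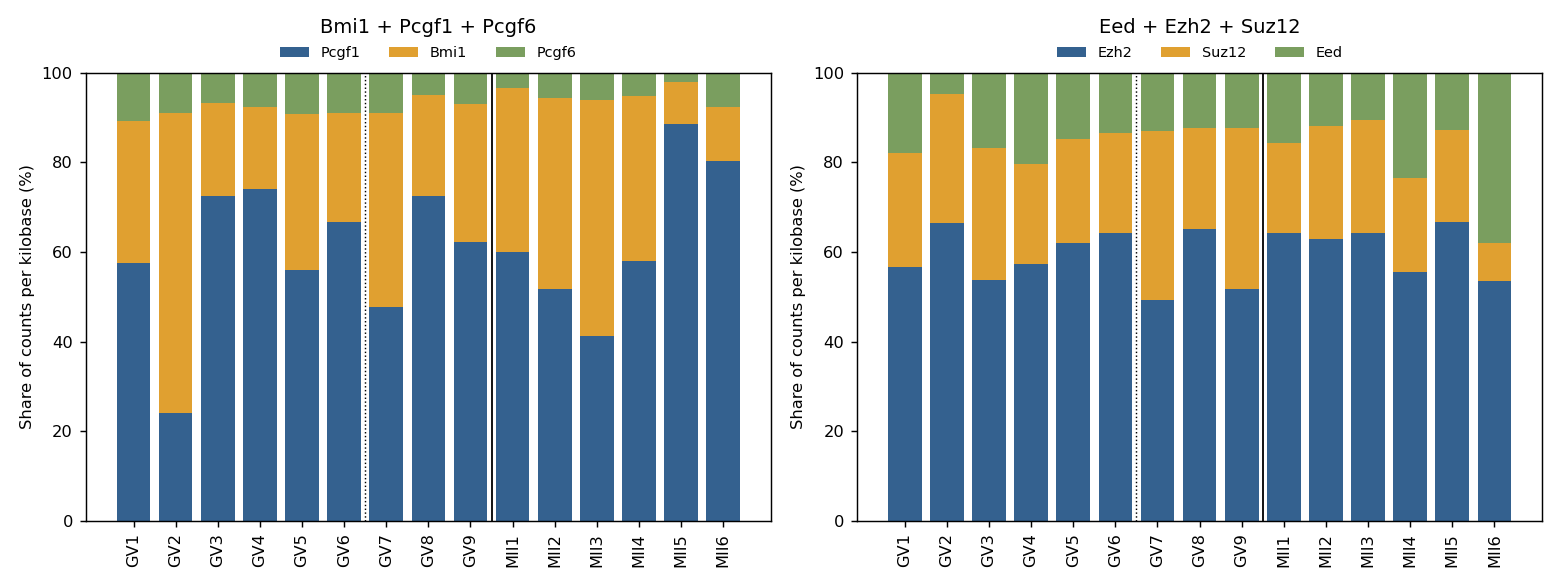
Share of counts per kilobase of exon (vertical axis, percent) in each oocyte. Left, the RING partners Bmi1, Pcgf1 and Pcgf6, each in the sum of these genes alone. Right, the PRC2 core subunits Eed, Ezh2 and Suz12 in their sum. A dotted line lies between the GV file sets and a solid line before MII. Pcgf1 ranges from 24.0% in GV2 to 88.7% in MII5, and Eed reaches 38.0% in MII6.

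The SAM and MBT domain proteins differed from each other in how they followed the file sets. Scmh1 was at 158, 259 and 346 CPM in GV and 42.2, 111 and 171 CPM in MII. All 6 MII oocytes lay below the GV median of Scmh1, in CPM and relative to the median gene. The share of all measured genes that do so is not given on either scale, so this is a description. The ratio of Scmh1, -0.42 (-0.52 to -0.33), was the lowest of the measured subunits and still smaller than its spread of 0.61, with -0.47 against the Y files and -0.40 against the E files. Scmh1 shared no 50-base stretch with another gene.

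Scml2, which lies on the X chromosome, split the GV oocytes by header kind. It was at 63.0, 185, 84.5, 41.1, 109 and 129 CPM in GV1 to GV6 and at 26.4, 13.3 and 18.2 CPM in GV7 to GV9, so every E oocyte lay below every Y oocyte. The MII oocytes, at 10.3 to 65.1 CPM with a median of 41.4, overlapped both sets. The log2 ratio E over Y, relative to the median gene, was -2.13. The ratio of Scml2 between stages was -0.16 (spread 1.48) over all GV oocytes, -0.50 against the Y files and 1.70 against the E files, so its direction depends on the set. It was 0.06 without GV2.

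Of the 9 measured subunits, 1 (Scml2) was at least 2-fold lower in the E files than in the Y files and 1 (Suz12, 1.05) at least 2-fold higher, beside 20.2% and 18.1% of 10764 measured genes. Scml2 was also the 1 subunit with every E oocyte below every Y oocyte relative to the median gene, which held for 6.06% of measured genes. The reverse held for 0 subunits and 10.7% of genes. The share of Scml2 in the summed Scmh1 and Scml2 level per kilobase was 6.31% to 12.6% in the E oocytes, 21.6% to 49.7% in the Y oocytes and 18.5% to 36.2% in MII. What sets the file sets apart was not tested.

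**Figure D3:**
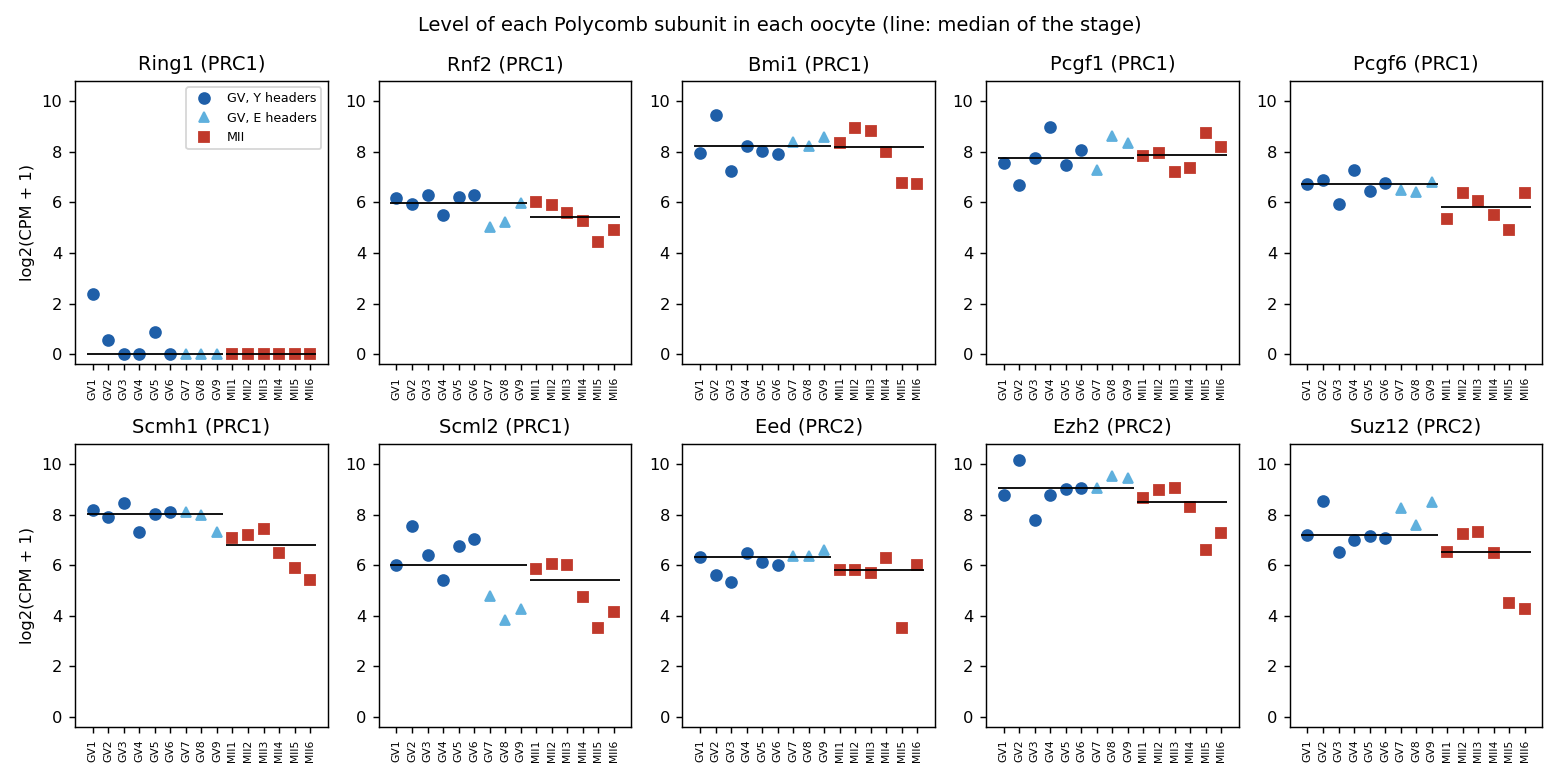
Level of each subunit as log2(CPM + 1) (vertical axis, log scale) in each of the 15 oocytes (horizontal axis), with the median of each stage as a line. Ring1 is above 0 in GV1, GV2 and GV5 alone, Scml2 is lowest among GV oocytes in GV7 to GV9, and the ranges of the stages overlap for every gene.

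Of the PRC2 core, Ezh2 was the most abundant gene per kilobase. Ezh2 was at 220, 525 and 1145 CPM in GV and 94.7, 358 and 536 CPM in MII. GV2 was again the highest GV oocyte and MII5 the lowest MII oocyte, and the stages overlapped. The ratio was 0.15 (0.09 to 0.20) with a spread of 0.87, although CPM were lower in MII (548 and 307). Without GV2 the ratio was 0.31. The sign was the opposite against the E files (-0.24) of that against the Y files (0.26). Ezh2 made up a median of 85.4% of the summed Ezh1 and Ezh2 level per kilobase in GV and 80.5% in MII, with ranges of 73.0% to 94.9% and 71.9% to 82.8%. Ezh1, the paralog with weaker enzymatic activity, had a ratio of 0.83.

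Suz12 was at 89.8, 146 and 368 CPM in GV and 18.3, 90.0 and 156 CPM in MII. The lowest MII values were in MII5 (21.8 CPM) and MII6 (18.3 CPM), under every GV oocyte, while MII2 and MII3 exceeded the GV median. Its ratio was -0.28 (-0.39 to -0.17) with a spread of 1.20, and it was 0.05 without MII5 and MII6. It was 0.01 against the Y files and -0.98 against the E files, in which Suz12 was higher than in the Y files. Suz12 and Ezh2 each overlap a long noncoding RNA gene on the opposite strand (Gm26563 and Gm26625), and these share 2.60% and 1.11% of their 50-base stretches.

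Eed was at 39.1, 78.7 and 96.3 CPM in GV and 10.3, 55.1 and 76.6 CPM in MII. All 6 MII oocytes lay below the GV median in CPM, whereas 1 of 6 did so relative to the median gene. The share of all measured genes with all 6 below in CPM is not given. The ratio of Eed was 0.59 (0.45 to 0.73) with a spread of 0.95, and 0.34 without MII6. MII5 held 17 counts of Eed, the smallest count of this gene in any oocyte. Eed overlaps E230029C05Rik on the opposite strand and shares 5.82% of its 50-base stretches with other genes, so part of its counts is uncertain.

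The promoters of Ezh2 and Suz12 are shown because their levels were correlated across oocytes, as given below (r 0.85 over the GV oocytes). Bmi1 gave higher values with Ezh2 (0.92) and Suz12 (0.90), and its promoter window held no CCAAT or E2F match. The part of these letters in the levels was not tested. The 250 bases before the start site are from RefSeq on GRCm38.p6. Ezh2 lies at chr6:47595031-47595280 on the minus strand and Suz12 at chr11:79992856-79993105 on the plus strand. Capitals mark CCAAT, the core of the NF-Y site (ATTGG on the other strand), and TTCCCGC, an E2F type site.
Ezh2: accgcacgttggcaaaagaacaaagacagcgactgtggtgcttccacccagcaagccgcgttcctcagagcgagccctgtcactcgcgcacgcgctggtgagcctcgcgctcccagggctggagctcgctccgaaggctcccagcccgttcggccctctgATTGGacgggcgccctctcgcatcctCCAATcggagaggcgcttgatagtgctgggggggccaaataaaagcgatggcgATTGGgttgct
Suz12: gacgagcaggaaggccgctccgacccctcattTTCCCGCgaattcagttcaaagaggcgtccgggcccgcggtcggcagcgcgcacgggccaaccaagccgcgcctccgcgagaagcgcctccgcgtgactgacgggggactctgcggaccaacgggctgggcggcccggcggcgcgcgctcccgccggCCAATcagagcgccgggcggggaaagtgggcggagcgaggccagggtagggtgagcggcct
Of the 10 subunits, 9 had a RefSeq window of 300 bases, and CCAAT was found in 3 of them: Ezh2 with 3 matches, and Suz12 and Eed with 1 each. These are the 3 PRC2 genes, and 0 of the 6 PRC1 genes with a window had a match, while Pcgf1 had no window. CCAAT occurred in 37.4% of 32841 mouse windows and at least 3 times in 3.37%, so 3 of 9 is near the share of all windows. The motifs were chosen with the promoters seen, so the division between PRC2 and PRC1 genes is a description only. TTCCCGC was found in Suz12 and in Scmh1 and in 4.60% of all windows, and the related TTGGCGC in Ezh2, past its start site, and in 2.45%. The motifs overlapped nowhere in the printed stretches. CACGTG was found in Bmi1 (7.15% of windows), and AAGATGGC, TATAAA and TGACGTCA were found in none of the 9 genes. Each motif was searched as these letters and as their reverse complement, and a match describes the letters only.

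Relative to the median gene, Ezh2, Bmi1 and Suz12 gave the highest correlations among GV oocytes. They were picked from 36 pairs after the values were seen. Pearson's r over the 9 GV oocytes was 0.92 for Bmi1 and Ezh2, 0.90 for Bmi1 and Suz12 and 0.85 for Ezh2 and Suz12. Without GV1 and GV2 the values were 0.83, 0.94 and 0.78 (n = 7), a set in which the 3 E oocytes lie at the upper end. Eed, the other PRC2 subunit, gave 0.23 with Ezh2 and 0.42 with Suz12 over all 9, and 0.81 and 0.85 without GV1 and GV2, where its r with Bmi1 was 0.98. Whether Eed follows these genes thus depends on GV1 and GV2. In MII the same 3 genes were low in MII5 and MII6, and Pcgf1 was highest there: its relative level was 5.39 and 4.82 in these oocytes against 2.89 to 3.63 in MII1 to MII4. Suz12 was at 1.18 and 0.90 in MII5 and MII6 against 2.34 to 2.98. These oocytes had 52.6% and 61.2% of counts in the unnamed feature, and its part in these levels was not tested. The points of a correlation share a library, its depth and its scaling, so these values are a description.

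**Figure D4:**
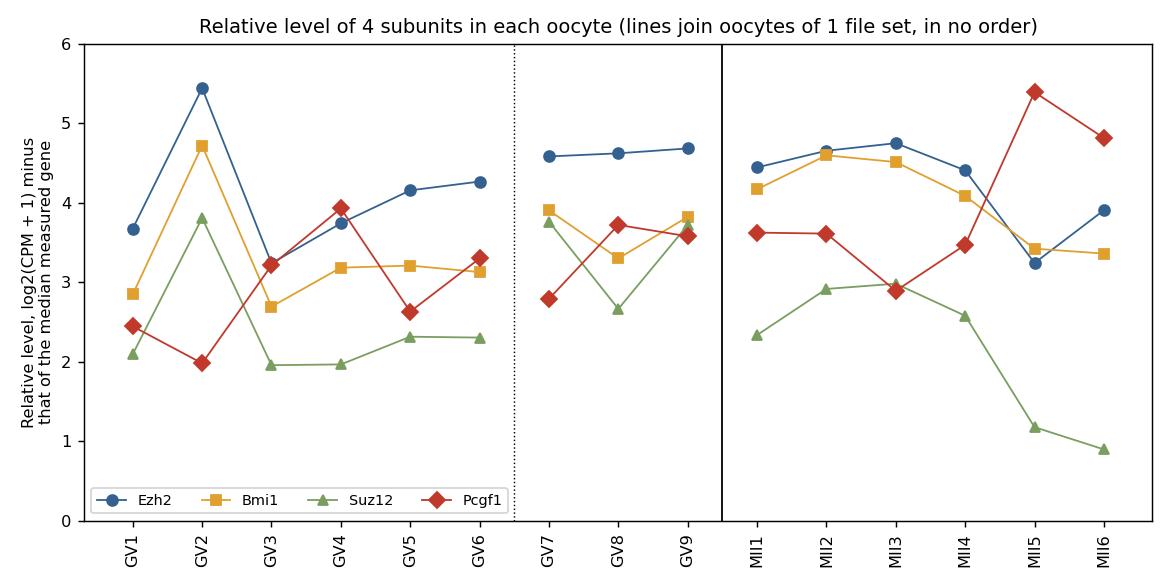
Relative level of Ezh2, Bmi1, Suz12 and Pcgf1 (vertical axis, log2(CPM + 1) minus that of the median measured gene of the oocyte) in the 15 oocytes (horizontal axis). Ezh2, Bmi1 and Suz12 peak in GV2, and Suz12 stands at 1.18 in MII5 and 0.90 in MII6, where Pcgf1 stands at 5.39 and 4.82.

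The measured gene with the most similar pattern over the 15 oocytes, by Pearson's r of relative levels among 6106 genes of at least 20 CPM in the higher stage, was found for each subunit. For the genes that varied together, it was Tmtc3 for Ezh2 (0.93), Ppig for Bmi1 (0.92) and Zfp280d for Suz12 (0.93). It was Hist1h2aa for Pcgf1 (0.91), Aff1 for Scmh1 (0.92), Rnf20 for Scml2 (0.92) and Eif2s3x for Eed (0.88). Rnf2 was nearest to Ppp1r9b (0.85) and Pcgf6 to Utp3 (0.75). No subunit had another of the 10 as its nearest gene. The nearest other subunit ranked 31 for Ezh2 (Suz12), 36 for Bmi1 (Ezh2), 110 for Suz12 (Ezh2) and from 100 to 2037 for the other 6.

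Compared per kilobase of exon, the summed GV levels ran from Pcgf1 (155 CPM per kb) through Ezh2 (82.1), Bmi1 (77.1), Suz12 (38.6), Scmh1 (33.1), Pcgf6 (20.0), Eed (18.1), Rnf2 (14.9) and Scml2 (12.8) to Ring1 (0.19). Each gene overlapped its neighbour in this order in its range over oocytes, other than Scml2 and Ring1, at 2.19 to 30.5 and 0 to 1.28 CPM per kb. In MII the order was Pcgf1 (155), Bmi1 (66.4), Ezh2 (46.0), Suz12 (16.1), Eed (13.8), Scmh1 (12.5), Pcgf6 (11.9), Rnf2 (9.56), Scml2 (5.79) and Ring1 (0). Neighbours overlapped in MII too, other than Scml2 (1.70 to 10.7) and Ring1. The order depends in part on the length used. With the longest transcript in place of all exons, Pcgf1 (278), Ezh2 (197) and Bmi1 (85.2) led in GV, and Scmh1 (72.3) stood above Suz12 (43.7). In MII that length put Ezh2 (110.2) above Bmi1 (73.5), and Suz12 (18.2) below Scmh1 (27.2), Eed (25.6) and Pcgf6. By either length Pcgf1 was first and Rnf2, Scml2 and Ring1 were the last 3 at both stages.

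Over the subunits as a group, 9 of 10 passed the level filter and had counts in every oocyte, and Ring1 did not. Of these 9, 0 were at least 2-fold lower in MII relative to the median gene and 0 at least 2-fold higher, beside 15.5% and 12.1% of all measured genes. The relative levels of 0 subunits had every MII oocyte below every GV oocyte, beside 0.684% of measured genes, and 0 had every MII oocyte above, beside 1.61%. In CPM, 0 subunits had every MII oocyte below every GV oocyte, beside 4.65% of measured genes. The median ratio was 0.23 (range -0.42 to 0.98), beside 0 for all measured genes by construction, with quartiles of -0.59 and 0.54. All 9 ratios were smaller than the spread of the gene between oocytes. That spread is of single oocytes and is no error of the ratio. The share of all measured genes with a ratio under their spread is not given, so the count is a description. In CPM, 8 of the 9 were lower in MII, beside 87.5% of all measured genes, and 3 (Scmh1, Scml2 and Suz12) were at least 2-fold lower, beside 49.1%. Relative to the median gene the same 3 were the lower ones. The sign of the group's median therefore depends on the scaling, as it was -0.75 in CPM and -0.09 in CPM without mitochondrial genes and the unnamed feature.

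With the Y files alone as GV, 1 subunit (Pcgf1, 1.06) was at least 2-fold higher in MII, beside 12.3% of measured genes. With the E files alone 1 (Scml2, 1.70) was, beside 20.6%. Both comparisons share the MII oocytes. The median gene itself had a log2 CPM ratio of -0.99 against the Y files and -0.86 against the E files.

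**Figure D5:**
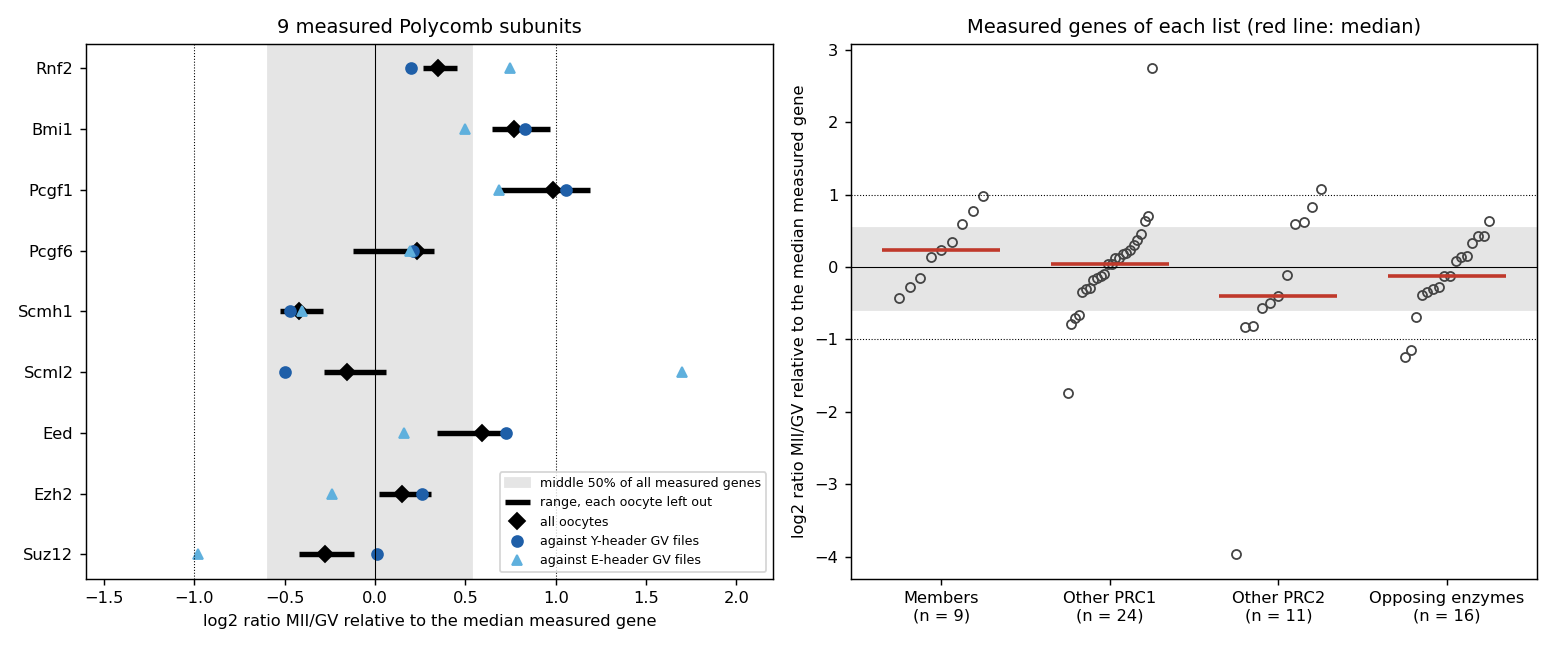
Left, log2 ratio MII/GV of the 9 measured subunits relative to the median measured gene (horizontal axis) for all oocytes, for each GV file set alone and as the range with each oocyte left out, over the middle 50% of all measured genes in grey. Right, the same ratio (vertical axis) of the measured genes of each list, where Max at 2.75 and Lcorl at -3.97 lie farthest out.

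Of 30 other PRC1 genes, 24 were measured, of which 1 was at least 2-fold lower (Mga) and 1 at least 2-fold higher (Max), with a median ratio of 0.05. Each is 4.17% of the measured list, beside 15.5% lower and 12.1% higher among all measured genes. Max, the small partner with which Mga and other basic helix-loop-helix proteins bind DNA, was at 111, 242 and 413 CPM in GV and 264, 579 and 2176 CPM in MII. Its ratio of 2.75 was above its spread of 1.02 and was 2.82 against the Y files and 2.45 against the E files. All these ratios use the same MII sum, which includes the oocyte at 2176 CPM, and values without that oocyte are not given. Mga, the scaffold of PRC1.6 and the DNA-binding partner of Max there, was at 71.1, 153 and 205 CPM in GV and 0, 28.6 and 53.2 CPM in MII, with a ratio of -1.74 and a spread of 1.89. Both were named as the extremes of the list, and the ratio of Mga was smaller than its spread. Skp1a, a subunit of the Kdm2b and Bcor complex PRC1.1 that also serves other ubiquitin ligases, had the most counts per kilobase, with a ratio of 0.05.

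Of 12 other PRC2 subunits and partners, 11 were measured, 1 lower (Lcorl) and 1 higher (Phf1), with a median ratio of -0.40. Each is 9.09% of the measured list, beside 15.5% lower and 12.1% higher among all measured genes. Phf1, a Polycomb-like protein that helps PRC2 bind chromatin, was at 67.8, 266 and 426 CPM in GV and 234, 266 and 543 CPM in MII, with a ratio of 1.08 and a spread of 1.03. AU022751 (EZHIP), an inhibitor of Ezh2 that is active in germ cells, had the most counts per kilobase of these genes. It was at 560, 1504 and 2250 CPM in GV and 215, 419 and 716 CPM in MII, with a ratio of -0.81 and a spread of 0.96. In GV its 664 CPM per kb compare with 82.1 for Ezh2, and in MII 191 with 46.0. The inhibitor thus had more counts per kilobase than its target at both stages. Lcorl had 4 counts in MII and a GV range of 0.41 to 71.8 CPM with a median of 3.80, and its ratio was -3.97.

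Of 16 enzymes that oppose Polycomb marks, or belong to the deubiquitinase complex of Bap1, all 16 were measured, 2 lower (Ogt and Kdm6a) and 0 higher, with a median ratio of -0.12. The 2 are 12.5% of the list, not above the 15.5% lower among all measured genes, of which 12.1% were higher. Ogt, the O-GlcNAc transferase bound to the Bap1 complex, was at 25.5, 56.7 and 93.3 CPM in GV and 2.13, 12.4 and 29.8 CPM in MII, with a ratio of -1.24 and a spread of 1.0. Kdm6a and Kdm6b (UTX and JMJD3) remove methyl groups from H3K27. Kdm6b had the most counts per kilobase and the highest ratio, 0.64, at 367, 1584 and 2929 CPM in GV and 484, 1304 and 2179 CPM in MII. Kdm6a, named after its values were seen, was at 188, 495 and 857 CPM in GV and 32.2, 131 and 176 CPM in MII, with a ratio of -1.14 and a spread of 1.04. The CPM ranges of Kdm6a did not overlap, with MII lower, as for 4.65% of measured genes, and those of Kdm6b did. The CPM ranges of Mga, given above, did not overlap either. In CPM, 87.5% of measured genes were lower in MII, and the ranges of Kdm6a relative to the median gene are not given.

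Of 5 genes imprinted through maternal H3K27me3, which PRC2 silences on the maternal allele, 2 were measured. Gab1 was the most abundant with 8.93 CPM in GV and 6.13 in MII. The 5 genes summed to 0.379 to 55.1 CPM in GV oocytes, highest in GV2 (55.1) and GV1 (42.7), and to 0 to 27.6 CPM in MII. Jade1 had 369 counts in GV and 2 in MII, with a GV median of 1.24 CPM and a highest value of 42.5 CPM. The 10 subunits summed to 1284 to 2958 CPM in GV and 776 to 1791 CPM in MII oocytes. These sums cover unlike numbers of genes and are not per kilobase. The part of PRC2 in the levels of the 5 targets was not tested.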

How the data were processed

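The authors deposited a file of counts for each oocyte, whole numbers by Ensembl gene ID. Tools in the submitters' processing notes are cutadapt 4.0 and STAR 2.7.10a, with the build GRCm39. These sources do not state how reads were assigned to genes (tool, annotation, strand, molecular identifiers). Names and exon lengths came from GENCODE M21 (GRCm38), and 28402 of 28785 IDs (98.7%) had a symbol. Absent genes were taken as 0 counts.

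Counts were summed by labelled stage and given as CPM. Log2 ratios used 0.5 added to each sum, relative to the median gene of at least 5 CPM. The spread between oocytes was the root of the summed squared SDs of log2(CPM + 1) relative to each oocyte's median measured gene. Intervals are exact Poisson 95% intervals. Shared 50-base stretches were counted between annotated transcripts, and the script for ratios was tested on simulated data. The subunits, lists and motifs were chosen with earlier results of these data known, the motifs also with the promoters seen. Named genes were all 10 subunits, the most abundant per kilobase and both extremes of each pathway list, the most abundant of each marker or target list, and the most similar gene to each subunit. Alternatives covered scaling, filters, pseudocounts, thinning to 808641 counts, lengths, file sets and left-out oocytes. No protein sequences were used here. Tools were Python 3.11.15, pandas 2.3.3, numpy 2.4.6, scipy 1.17.1, R 4.3.3, edgeR 4.0.16 and DESeq2 1.42.0, both for scaling factors only.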

Additional observations from a re-analysis of the deposited data

Results flagged for a closer look

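Bmi1 in GV2 was flagged because this oocyte lay far from the others of its stage: it had 694 CPM, the next GV oocyte had 386 CPM, and the gap was 0.567 of the whole GV range. Of 18 groups of oocytes looked at (9 subunits at 2 stages), 1 was flagged, and chance flags about 1 in 20. GV2 is also a library with counts in 34 of 39 Hox genes, and the part of either in the other was not tested.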

How the results depend on the processing

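Across 31 settings the 9 measured subunits gave 279 ratios, of which 272 moved by less than the spread between oocytes and 20 differed in sign, 2 of them among 135 values with 1 oocyte left out. That spread is of single oocytes and is wide beside what most settings can move a summed ratio, so the 272 are no measure of robustness. In CPM of all counts every subunit shifts by the same -0.98, and whether it passes its spread depends on the width of that spread. In CPM of all counts the median ratio of the subunits was -0.75 and 3 subunits (Scmh1, Scml2 and Suz12) were at least 2-fold lower, beside 49.1% of all measured genes, where the median gene itself stands at -0.98. The median gene stood at -0.32 in CPM without mitochondrial genes and the unnamed feature, -0.11 with TMM scaling and -0.06 with median-of-ratios scaling. The count at least 2-fold higher was 1 with the median gene taken over genes of at least 1 CPM (Pcgf1), 1 with the Y files alone (Pcgf1) and 1 with the E files alone (Scml2). With each oocyte left out, the median ratio ranged from 0.16 to 0.33, the count at least 2-fold higher from 0 to 1 (Pcgf1, in the 7 cases without GV4, GV8, GV9 or any 1 of MII1 to MII4) and the count lower stayed at 0. The medians of the lists ranged from -0.04 to 0.06 for other PRC1 genes, -0.49 to -0.24 for other PRC2 genes and -0.18 to -0.01 for the opposing enzymes. No paired analysis was possible because the labels tie no GV oocyte to an MII oocyte and no test was made. Ring1 without GV1, and the E files against the Y files, were chosen after seeing the data. Ring1 had 27 counts in all, and the deepest library, GV3, had 0 of them.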
